A study of Mus musculus with 18 samples.

Results

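The genes described here are the mouse ubiquitin-conjugating enzymes named Ube2 and the members of 3 named families of ubiquitin ligases. Conjugating enzymes with other names, such as Cdc34, are not among them. They were taken by name from a table of long-read counts: gene symbols that start with Ube2, Rnf, Trim, Fbxo, Fbxl or Fbxw, with at least 50 reads summed over all isoforms and all 18 libraries. Of 17714 gene labels in the table, 146 met this rule, and another 57 that carried such a name had fewer reads. They comprised 30 Ube2 genes, 53 Rnf genes, 26 Trim genes and 37 F-box genes (20 Fbxo, 11 Fbxl and 6 Fbxw). The genes were chosen by total reads, and no test of cell type or of cells against vesicles was used to choose them. The choice is still not independent of those differences. A gene read mainly in a single group or fraction could meet the minimum through it, which in part fixes the direction of its difference. Just inside the minimum lay Ube2t with 51 reads, Ube2h with 61, Fbxo31 with 66 and Fbxo45 with 70. Just outside it lay Trim39 with 49 reads, Rnf126 with 47, Trim21 with 46 and Rnf166 with 45. The totals of the 146 genes ran from 51 to 12842 reads, with a median of 324.

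The study asked which messenger RNAs brain cells package into small extracellular vesicles (sEVs), the membrane-bound particles that cells release. Poly(A) RNA from primary mouse cultures of astrocytes, microglia or neurons, and from the sEVs that each culture released, was reverse transcribed, amplified and read as whole molecules on a PacBio sequencer. There were 6 groups of 3 libraries: astrocyte, microglia and neuron cells, and astrocyte, microglia and neuron sEVs. No treatment or genetic change is named for any group, and the sources used here do not give strain, sex or age of the mice. All cell libraries were sequenced in one pool and all sEV libraries in another, so wherever sEVs are set against cells, fraction and sequencing pool cannot be told apart. Library totals ran from 434298 to 683381 reads, and the 146 genes together held 114756 of 10234812 reads. The labelled cell types carried their own markers: 12 astrocyte markers summed to 24552 ± 1439 RPM (reads scaled to a common library total; SD, n = 3) in astrocyte cells and 158 ± 94.0 in microglia cells, and 14 microglial markers summed to 18540.0 ± 1954 in microglia cells and 149 ± 39.0 in astrocyte cells. Neuron cells also held 3132 ± 167 RPM of the astrocyte markers, beside 5234 ± 488 of the neuronal ones. The 9 oligodendrocyte-lineage markers of the table together reached 6440.2 ± 2602 RPM in astrocyte cells and 2621 ± 618 in astrocyte sEVs, and 1129 ± 528 in neuron cells and 382 ± 81.0 in neuron sEVs. The part of these other cell types in the levels below was not tested. In bulk libraries of this kind, fewer cells of a type and less RNA per cell cannot be told apart.

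Ubiquitin is a small protein that is attached to other proteins in a relay. An E1 enzyme activates it, an E2 enzyme (the Ube2 family) carries it, and an E3 ligase brings the E2 and the substrate together; chains of ubiquitin mark proteins for the proteasome or change how they signal. Most ligases bind the E2 through a RING domain, as most Rnf and Trim proteins do, whereas F-box proteins are the substrate-binding part of cullin ligases. A few Ube2 enzymes carry related modifiers in place of ubiquitin, such as NEDD8, which switches cullin ligases on, and ISG15, which is induced by interferon. In microglia and other immune cells many Trim genes are themselves induced by interferon, and in neurons several ligases act in axon growth and at synapses.

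Levels are given as CPM, read counts scaled to a common library size after TMM normalization, and a difference is a log2 ratio of fitted group means with its standard error (SE). A gene was called higher or lower where edgeR's quasi-likelihood test, adjusted by the Benjamini-Hochberg method over all 8184 genes tested, gave an adjusted p under 0.05. Of the 146 genes, 136 had enough reads to be tested. The 10 left out held between 51 and 102 reads each and were Ube2t, Rnf32, Rnf113a1, Rnf215, Rnf220, Trim11, Trim45, Fbxl12, Fbxo16 and Fbxo31. The smallest count above 0 in the table was 2, so a library at 0 may hold a single read that was not listed. Where a whole group was at 0, the fold is a lower bound set against 3 reads in each of its libraries. CPM was not divided by transcript length, so no gene's level is set against another gene's.

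As a share of reads the 146 genes were higher in every sEV than in every cell library of astrocytes and of microglia. In neurons they were higher in the mean only. They summed to 9361 ± 1066 RPM in astrocyte cells and 12957 ± 1581 in astrocyte sEVs. The sums were 8629.9 ± 309.9 in microglia cells and 14291 ± 1337 in microglia sEVs, and 10270.4 ± 1008 in neuron cells and 11771 ± 1154 in neuron sEVs (SD, n = 3 each, not tested). Neuron libraries overlapped, with 11432 RPM in neuron cell library 2 and 10809 in neuron sEV library 1. Rnf10 alone held 1046, 1185 and 978 of the 7219, 6835 and 7094 reads of these genes in neuron sEVs. In neuron cells it held 43, 45 and 59 of 5214, 6356 and 5076. The part of Rnf10 in the neuron rise was not tested. In microglia the Ube2 genes held most of the extra reads, at 4120.4 ± 135 RPM in cells and 8599 ± 672 in sEVs. In number of genes with a read the sEVs did not exceed the cells: a library held on average 124 of the 146 in astrocyte cells, 104 in microglia cells and 124 in neuron cells, against 114, 95.3 and 119 in the matching sEVs.

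Between sEVs and cells, averaged over the 3 cell types, 40 of the 136 tested genes were called, 27 of them higher in sEVs and 13 lower. Over all genes tested 33.9% were called in this comparison, 14.5% higher and 19.5% lower. The median log2 difference of the 136 genes was 0.23 (0.29 with genes that have a group at 0 set at their bound), against -0.15 for all genes. Among the conjugating enzymes named Ube2 the calls ran one way: 9 of 29 tested genes were higher, none was lower, 25 had a positive difference and the median of the 29 was 0.43. Rnf genes split into 9 higher and 7 lower of 49, Trim genes into 3 higher and 1 lower of 24, and F-box genes into 6 higher and 5 lower of 34. Genes at 0 in both fractions of a cell type, such as Trim14 (SE 843) and Trim30a (SE 109), could hardly be called in this mean. The share of all genes called carries the same limit. Taken one cell type at a time, 15 of 136 were called in astrocytes (11 higher, 4 lower; of all genes 20.3%, 8.04% higher and 12.2% lower), 9 in microglia (6 higher, 3 lower; of all genes 11.9%, 2.7% higher and 9.18% lower) and 32 in neurons (21 higher, 11 lower; of all genes 31.4%, 13.6% higher and 17.8% lower). Scaling to plain library totals changed the split of these calls in microglia to 18 higher and 2 lower and in neurons to 15 and 14, while it moved the median of all genes to 0.14 and -0.47 (from 0 and -0.10).

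**Figure D1:**
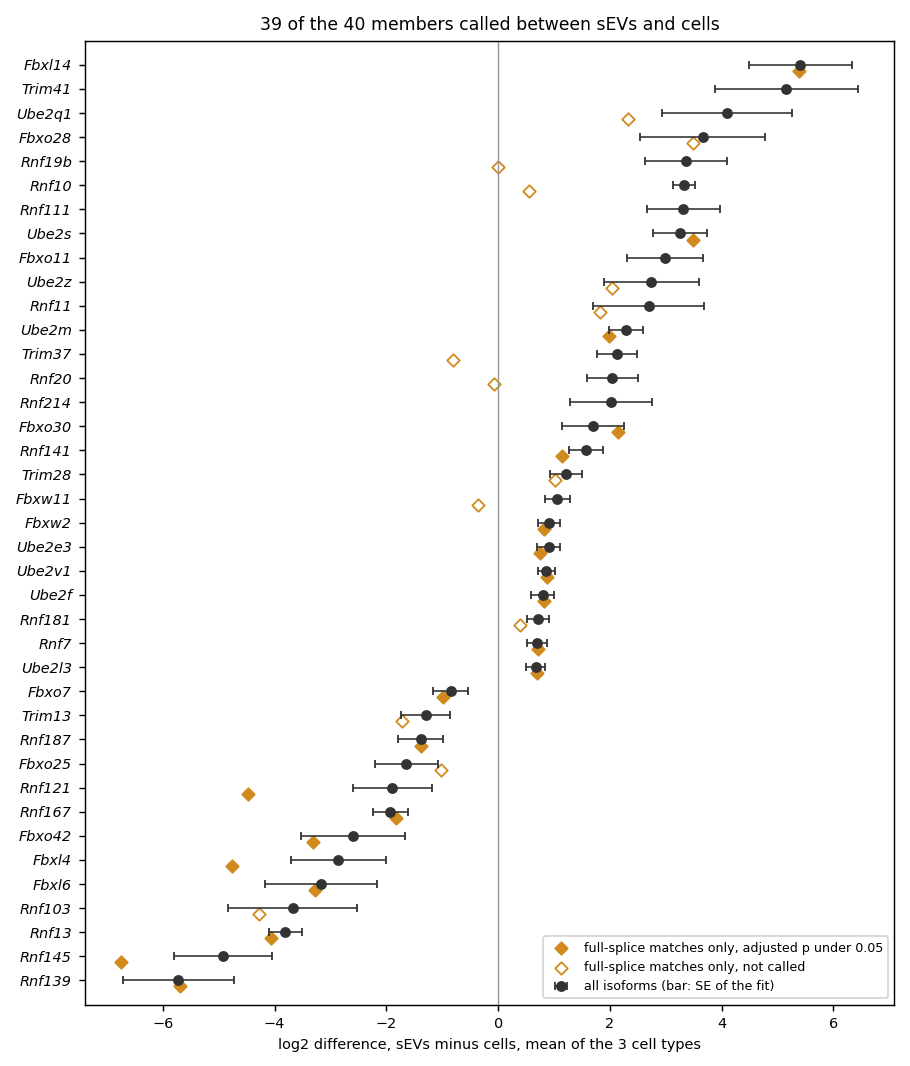
Difference between sEVs and cells for 39 of the 40 ubiquitin genes called in the mean of the 3 cell types; the horizontal axis is the log2 difference, black points and bars give the value and SE from all isoforms, and diamonds give the value from full-splice-match isoforms alone (filled where adjusted p was under 0.05; no diamond where the gene could not be tested). Of the 26 genes to the right of 0, 11 have a filled diamond, against 10 of the 13 to the left; some of the points farthest from 0 rest on groups at or near 0 reads, where the fitted value depends on the model.

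The Ube2 gene with the most reads, Ube2v1, was higher in the sEVs of astrocytes and neurons. Ube2v1 has no catalytic cysteine and works as a partner of Ube2n, with which it builds a chain type used in signalling. It stood at 797, 868 and 675 CPM in the 3 astrocyte cell libraries and at 1513, 2022 and 1935 in the astrocyte sEVs. Neuron cells held 732, 992 and 857 CPM and neuron sEVs 1546, 2008 and 1900.3. Every sEV library lay above every cell library in both types, and edgeR gave a difference of 1.22 (SE 0.26, adjusted p = 0.00289) in astrocytes and 1.08 (SE 0.26, adjusted p = 0.00476) in neurons. Microglia overlapped, with 849, 957 and 1064 CPM in cells and 792, 1170.5 and 1516 in sEVs (adjusted p = 0.592 by edgeR). The test of whether the difference itself varied among the 3 cell types gave an adjusted p of 0.239 for Ube2v1. Its catalytic partner Ube2n was not called: the difference was 0.21 in astrocytes, 0.85 in microglia and -0.25 in neurons, with adjusted p of 0.670, 0.0510 and 0.529 by edgeR, none of them under 0.05.

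Both enzymes that carry NEDD8 were higher in sEVs in the mean of the 3 cell types. Ube2m, the main E2 for NEDD8, stood at 11.04, 13.8 and 14.8 CPM in neuron cells and 141, 143 and 114 in neuron sEVs. Microglia held 38.3, 14.2 and 25.2 CPM in cells and 150.4, 67.9 and 78.9 in sEVs, and astrocytes 14.3, 8.31 and 4.24 in cells and 41.3, 19.4 and 21.5 in sEVs. In all 3 cell types every sEV library exceeded every cell library. The edgeR difference was 3.31 in neurons (SE 0.53, adjusted p = 1.67e-04) and 2.28 in the mean (SE 0.30, adjusted p = 1.22e-05). In astrocytes the adjusted p was 0.0409 by edgeR and the call was lost in 12 of the 18 fits that left out 1 library. In microglia it was 0.0188 by edgeR, and 0.104, 0.0768 and 0.0845 without microglia cell library 2, microglia cell library 3 or microglia sEV library 1. Both calls were lost when only full-splice matches were counted, reads whose splice junctions all match an annotated transcript. By that count the astrocyte libraries overlapped, with 10, 6 and 3 reads in cells and 32, 0 and 10 in sEVs. The neuron and mean calls were kept.

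Ube2f, the other E2 for NEDD8, had a mean difference of 0.79 (SE 0.21, adjusted p = 0.00740) and passed in no single cell type. Ube2l6, the E2 for ISG15, was not called (mean difference 0.38, adjusted p = 0.303).

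Ube2s, which extends ubiquitin chains on substrates of the anaphase-promoting complex in mitosis, was close to absent from neuron cells and present in all neuron sEV libraries. It had 0, 0 and 6.56 CPM in neuron cells and 67.99, 99.2 and 79.99 in neuron sEVs. The corresponding values were 2.87, 2.77 and 8.48 and 27.1, 19.4 and 21.5 in astrocytes, and 12.8, 5.66 and 9.16 and 32.6, 66.00 and 50.95 in microglia. All 9 sEV libraries thus lay above all 9 cell libraries, and edgeR gave an adjusted p of 3.77e-04 in neurons and 3.89e-05 in the mean (difference 3.26, SE 0.48). Ube2s met the read minimum through sEV libraries, which in part fixes its calls. Ube2c, the E2 that starts those chains, was not called (mean difference 1.28, adjusted p = 0.123).

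Among the other conjugating enzymes, Ube2l3, which serves HECT ligases and parkin-type ligases, rose in neuron sEVs from 125, 165 and 129.6 to 355, 338 and 384 CPM (difference 1.36, SE 0.29, adjusted p = 0.00217 by edgeR). Ube2e3, an E2 that is imported into the nucleus, rose in microglia sEVs from 22.3, 14.2 and 20.6 to 86.99, 48.5 and 52.6 CPM (difference 1.71, SE 0.39, adjusted p = 0.00850 by edgeR; 0.0560 without microglia cell library 2). A single Ube2 gene was called lower in sEVs, and in a single cell type. Ube2b, an E2 of DNA damage tolerance and histone ubiquitylation, went from 214, 237 and 241 CPM in neuron cells to 136, 133 and 117 in neuron sEVs, without overlap (difference -0.84, SE 0.26, adjusted p = 0.0197 by edgeR). That call was lost without neuron cell library 2 (adjusted p = 0.0537), neuron cell library 3 (0.0602) or neuron sEV library 3 (0.0689).

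Rnf10 had the smallest adjusted p of the 136 genes between sEVs and cells, and the amount of the shift differed among the cell types. Rnf10 is a RING ligase that ubiquitylates proteins of the small ribosomal subunit and, in neurons, moves from synapses to the nucleus. Neuron sEVs held 1735, 2499.9 and 1738 CPM against 67.8, 68.9 and 96.8 in neuron cells. Astrocyte sEVs held 379, 731 and 620.5 CPM against 40.1, 42.9 and 55.1 in the cells, and microglia sEVs 63.4, 73.8 and 69.04 against 28.7, 11.3 and 25.2. No sEV library overlapped a cell library of its own type. The edgeR differences were 4.67 in neurons (SE 0.34, adjusted p = 7.60e-08), 3.64 in astrocytes (SE 0.33, adjusted p = 8.60e-07) and 1.65 in microglia (SE 0.36, adjusted p = 0.00592). The test of unequal shifts among cell types gave an adjusted p of 0.00462, and Rnf10 was the 1 gene of 136 called by it, where 3.96% of all genes were called.

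The structure of the Rnf10 reads changed along with their number and differed between libraries of one group. A full-splice match is a read whose splice junctions all match an annotated transcript; a 3-prime fragment matches only its downstream part. In neuron sEVs the 3 libraries held 932, 0 and 967 full-splice-match reads of Rnf10 and 103, 1175 and 4 reads of 3-prime fragments. In astrocyte sEVs the full-splice matches were 0, 374 and 421 and the fragments 284, 0 and 0, and in microglia sEVs no library had a full-splice match, with 35, 38 and 18 fragments. Cell libraries held 91 full-splice matches among 98 reads in astrocytes and 135 among 147 in neurons. Microglia cell libraries held few Rnf10 reads, with 7, 4 and 0 full-splice matches and 2, 0 and 11 fragments. When full-splice matches alone were counted, the neuron difference was 3.89 with an adjusted p of 0.0783, the astrocyte difference 3.39 with 0.165, and the test among cell types gave 0.349 (edgeR). In microglia sEVs 91 of 115 reads were 3-prime fragments, and without them the difference was 0.34 (adjusted p = 1.00 by edgeR).

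**Figure D2:**
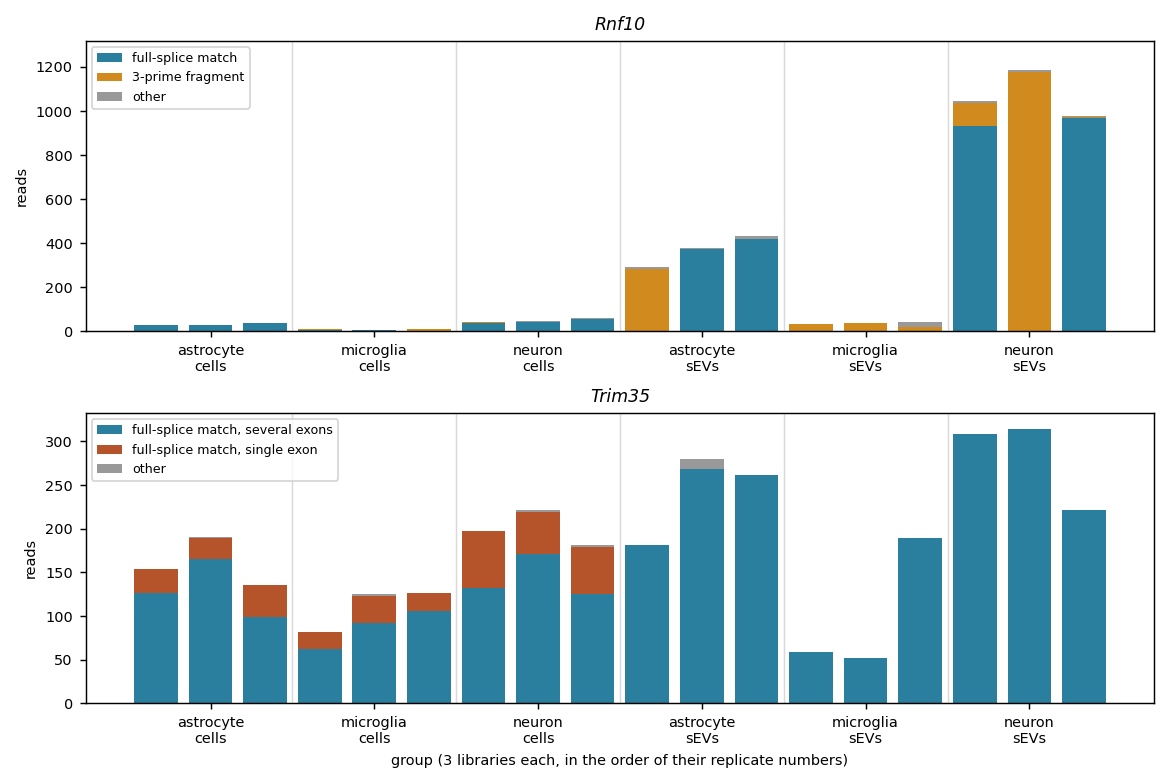
Reads of Rnf10 (upper panel) and Trim35 (lower panel) in each of the 18 libraries, stacked by structure; the vertical axis is the number of reads. Rnf10 reads are mainly full-splice matches in astrocyte and neuron cells, while several sEV libraries hold almost only 3-prime fragments, and the single-exon form of Trim35 is present in all 9 cell libraries and in none of the 9 sEV libraries.

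Several ligases that sit in membranes were lower in sEVs. Of 21 tested E2s and ligases known to be anchored in the endoplasmic reticulum, Golgi, endosomes or lysosomes, 7 were lower in sEVs and 1 was higher in the mean of the 3 cell types, with a median difference of -0.25. The 115 other tested genes had 26 higher and 6 lower, with a median of 0.27. On the membrane list Rnf122, Rnf128, Rnf144a and Trim59 were at 0 in both fractions of a cell type and could hardly be called in that mean. Taken singly, the membrane list gave 0 higher and 4 lower in astrocytes (median -0.60, all genes 0), 0 and 2 in microglia (median -0.25), and 1 and 6 in neurons, where its median of -0.15 lay close to the -0.10 of all genes. Lower calls were also common among all genes (19.5%), and the list was not compared with other lists by a test.

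Rnf13, a transmembrane ligase of endosomes and lysosomes, was lower in the sEVs of every cell type. Astrocyte cells held 622, 481 and 959 CPM and their sEVs 51.7, 83.4 and 54.5. Microglia cells held 495, 561 and 645 and their sEVs 107, 46.6 and 161, and neuron cells 265, 282 and 258 and their sEVs 0, 6.33 and 10.7. Cells and sEVs did not overlap in any type. By edgeR the differences were -3.45 (SE 0.48, adjusted p = 7.52e-05) in astrocytes, -2.43 (SE 0.46, adjusted p = 0.00226) in microglia and -5.54 (SE 0.61, adjusted p = 4.06e-06) in neurons. Counted over full-splice matches alone, the microglial adjusted p was 0.0597, and the astrocyte and neuron calls were kept. Its relative Rnf167, a lysosomal ligase of the same domain layout, followed. It stood at 165, 155 and 178 CPM in astrocyte cells and 36.2, 67.9 and 45.9 in their sEVs, and at 177, 216 and 229.8 in neuron cells and 49.8, 59.1 and 81.8 in theirs, again without overlap. Its mean difference was -1.93 (SE 0.31, adjusted p = 9.07e-05 by edgeR). In single cell types the Rnf167 call was less firm: in astrocytes the adjusted p of 0.0185 ran from 0.0506 to 0.0625 without astrocyte cell library 1 or 3 or astrocyte sEV library 1 or 3. In neurons it was 0.0144, and 0.0569 without neuron sEV library 1. In microglia it was 0.0172, and 0.0959 without microglia cell library 3. On full-splice matches alone it was 0.0866 in astrocytes and 0.0646 in microglia.

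Both sterol-related ligases of the endoplasmic reticulum had no read in neuron sEVs. Rnf139 had 53.03, 22.2 and 42.4 CPM in astrocyte cells and no read in astrocyte sEVs, at least 8.40-fold lower (adjusted p = 0.0132 by edgeR). Neuron cells held 41.01, 22.96 and 6.56 CPM and neuron sEVs none, at least 4.24-fold lower. The neuron adjusted p of 0.0236 rose to 0.0691 without neuron cell library 1, and to 0.0593, 0.0619 and 0.0641 without neuron sEV libraries 2, 3 and 1. Microglia held 176, 184 and 339 CPM in cells and 0, 5.82 and 87.1 in sEVs and were not called (adjusted p = 0.1004). Rnf145, which acts on the rate-limiting enzyme of cholesterol synthesis, went from 55.2, 61.2 and 98.5 CPM in neuron cells to 0 in all 3 neuron sEV libraries, at least 12.9-fold lower (adjusted p = 0.00406 by edgeR). In the mean of the 3 cell types the adjusted p was 4.64e-04 for Rnf139 and 3.84e-04 for Rnf145.

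Rnf122 was found mainly in astrocytes and was lost in their sEVs. This small membrane RING ligase had 97.5, 78.9 and 50.9 CPM in astrocyte cells and 0, 0 and 2.87 in astrocyte sEVs, which is 161 reads against 2. The ratio of reads, sEVs over cells, had a 95% counting interval of 0.00160 to 0.0488, which covers counting error only, and edgeR gave an adjusted p of 0.00704. Trim13, a TRIM ligase anchored in the endoplasmic reticulum, fell in neurons from 28.4, 41.3 and 41.03 to 4.98, 8.44 and 0 CPM (difference -3.02, SE 0.84, adjusted p = 0.0113 by edgeR). Over full-splice matches alone that adjusted p was 0.120, and the mean call (0.0290) was lost without astrocyte cell library 2, microglia cell library 2 or neuron cell library 2 or 3 (up to 0.0613). The other members of the list called lower in the mean were Rnf103 (adjusted p = 0.0237; 1.000 without microglia cell library 3) and Rnf121 (adjusted p = 0.0478, lost in 14 of the 18 fits that left out 1 library).

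Not every membrane ligase was lower. Rnf19b, a transmembrane ligase of the parkin type, was the exception called higher in the mean (adjusted p = 0.00217 by edgeR), and its 39 neuron sEV reads were all 3-prime fragments. Rnf5, a tail-anchored ligase of the endoplasmic reticulum, had a mean difference of 0.30 (adjusted p = 0.251). Rnf185, its close relative, had 0.46 (adjusted p = 0.702), and the endoplasmic reticulum E2s Ube2j1 and Ube2j2 both had 0.43 (adjusted p = 0.251 and 0.381).

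**Figure D3:**
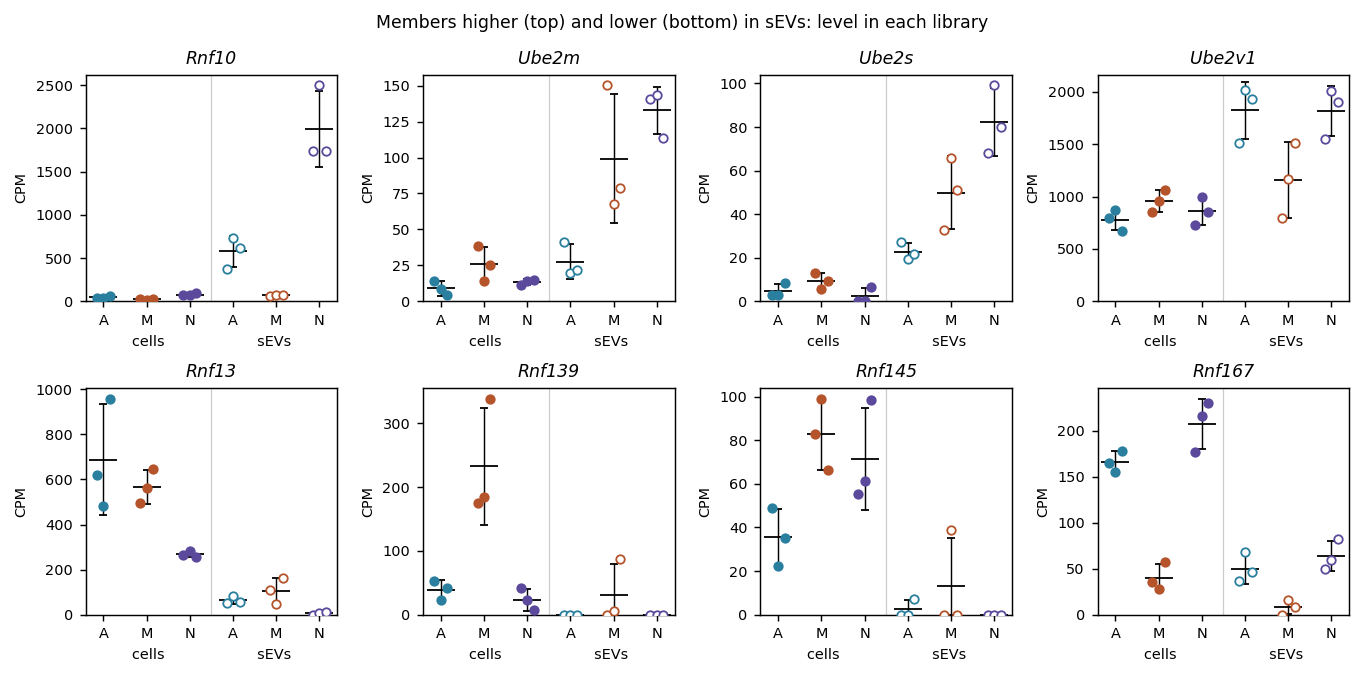
CPM in each library for 4 ubiquitin genes higher in sEVs (top row) and 4 membrane ligases lower in sEVs (bottom row), in astrocytes (A), microglia (M) and neurons (N); filled points are cell libraries, open points sEV libraries, and bars give the mean and SD of 3 libraries on a linear axis that starts at 0. Ube2s is higher in all 9 sEV libraries than in any cell library, and Rnf13 is lower in the sEVs of all 3 types.

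Other RING ligases moved in single cell types. Rnf141 rose in neuron sEVs from 52.05, 53.6 and 37.7 to 229, 232 and 183 CPM, a difference of 2.16 (SE 0.51, adjusted p = 0.00408 by edgeR, 0.0746 on full-splice matches). In astrocytes it went from 51.6, 31.9 and 42.4 to 54.3, 126 and 229 CPM, and its adjusted p of 0.0242 ended above 0.05 without astrocyte cell library 1, 2 or 3 or astrocyte sEV library 2 or 3 (up to 0.174). Rnf7, the RING subunit of a group of cullin ligases, had 66.2, 41.3 and 64.00 CPM in neuron cells and 108, 146 and 124 in neuron sEVs, and a mean difference of 0.70 (SE 0.18, adjusted p = 0.00570 by edgeR, 0.0993 with no filter on low counts). Rnf14, which acts at stalled ribosomes, was called higher in astrocyte sEVs (adjusted p = 0.0432 by edgeR), a call lost in 14 of the 18 fits that left out 1 library. Rnf11 rose in neuron sEVs from 0, 0 and 21.3 to 168, 165 and 137 CPM with an adjusted p of 0.0487 that was lost in 13 of those fits. Rnf187 fell in microglia sEVs from 156, 76.5 and 77.8 to 0, 0 and 39.4 CPM (adjusted p = 0.0244; 0.101, 0.0699 and 0.0753 without microglia cell library 1 or microglia sEV library 1 or 2).

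Of 7 tested ligases of the nucleus and chromatin, 3 were higher in sEVs in the mean (Trim28, Rnf20 and Rnf111) and none was lower, where 14.5% of all genes were higher and 19.5% lower. Trim28, the corepressor that silences retroelements through zinc-finger proteins, went from 78.8, 47.1 and 35.3 CPM in astrocyte cells to 202, 198 and 245 in astrocyte sEVs. The groups did not overlap, and the edgeR difference was 2.00 (SE 0.48, adjusted p = 0.00694; 0.0503 without astrocyte cell library 3). The astrocyte sEV libraries held 0, 99 and 141 full-splice-match reads of Trim28 and 150, 3 and 30 fragment reads, and on full-splice matches alone the adjusted p was 0.469. When full-splice matches alone were counted, the mean calls of Trim28 (adjusted p = 0.343) and Rnf20 (0.944) were lost, and Rnf111 could not be tested.

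Trim37, a ligase of peroxisomes and centrioles, rose in astrocyte sEVs from 15.8, 12.5 and 16.95 to 109.8, 114 and 38.7 CPM (difference 2.52, SE 0.58, adjusted p = 0.00460 by edgeR). That call was lost on full-splice matches alone (adjusted p = 0.127) and without 3-prime fragments (0.142). Its mean difference was 2.12 (adjusted p = 1.72e-04). Neuron sEVs held no full-splice match of Trim37, and 176 of their 204 reads were 3-prime fragments, against 5 of 100 in neuron cells. On full-splice matches alone the mean call was lost (adjusted p = 0.353 by edgeR). Trim41 was at 0 in neuron cells and at 46.4, 33.8 and 74.7 CPM in neuron sEVs, at least 10.9-fold higher (adjusted p = 0.0169 by edgeR). Of its 86 neuron sEV reads, 84 were 3-prime fragments, and its adjusted p was 0.0540, 0.0560 and 0.0571 without neuron cell libraries 3, 1 and 2. Trim41 met the read minimum through sEV libraries, which in part fixes that call.

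F-box genes were called in both directions. Fbxl14, which marks the transcription factor Snail for degradation, had no read in astrocyte cells and 20.7, 15.5 and 35.8 CPM in astrocyte sEVs, at least 5.67-fold higher (adjusted p = 0.00822 by edgeR). In neurons 2 reads in cells stood against 63 in sEVs, a ratio with a 95% counting interval of 9.68 to 307. The neuron adjusted p of 0.0138 became 0.0633 and 0.0633 without neuron cell libraries 2 and 3. All 120 sEV reads of Fbxl14 were full-splice matches, the only 1 isoform listed for it. Fbxl14 met the read minimum through sEV libraries, which in part fixes its calls. Fbxw2 rose in neuron sEVs from 107, 122 and 96.8 to 289, 299.6 and 226 CPM (difference 1.32, SE 0.33, adjusted p = 0.00595 by edgeR). In astrocytes Fbxw2 went from 77.4, 70.6 and 96.1 to 149, 208 and 173 CPM, and its adjusted p of 0.0232 was lost without astrocyte cell library 1, 2 or 3 or astrocyte sEV library 2 or 3 (up to 0.135). Fbxw11, a receptor for phosphorylated beta-catenin and inhibitors of NF-kappa-B, rose in neuron sEVs from 25.2, 30.6 and 19.7 to 86.2, 129 and 78.2 CPM (difference 1.94, SE 0.40, adjusted p = 0.00144), and this call was lost on full-splice matches and without 3-prime fragments. Fbxo11 had no read in microglia cells and 47.1, 81.5 and 11.5 CPM in microglia sEVs (at least 5.62-fold, adjusted p = 0.00387 by edgeR), and all 75 of those reads were 3-prime fragments.

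On the lower side, Fbxl2, an F-box protein held at membranes by a lipid, had 56.8, 91.9 and 67.3 CPM in neuron cells and no read in neuron sEVs, at least 12.98-fold lower (adjusted p = 0.00349 by edgeR). Fbxw7, a tumour suppressor that targets cyclin E, Myc and Notch, went from 306, 398 and 277 CPM in neuron cells to 59.7, 71.7 and 39.1 in neuron sEVs. Its groups did not overlap (difference -2.52, SE 0.84, adjusted p = 0.02997 by edgeR), but the call was lost without any 1 of the 6 neuron libraries (adjusted p 0.0622 to 0.106) and with DESeq2 (0.0646). Rnf112, a brain ligase that is also a membrane-bound GTPase, was read in neuron cells only, at 83.6, 27.6 and 50.9 CPM, and in no sEV library, at least 9.74-fold lower in neuron sEVs (adjusted p = 0.0101 by edgeR, 0.241 by DESeq2).

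Genes called higher in sEVs had a larger median share of fragments than genes called lower, in cells as well as in sEVs. Over all 146 genes, 3-prime fragments made up 2.64% ± 0.11 of reads in astrocyte cells and 7.86% ± 3.60 in astrocyte sEVs. The shares were 1.05% ± 0.29 and 5.04% ± 2.31 in microglia, and 3.63% ± 1.86 and 16.8% ± 8.35 in neurons (SD, n = 3). Without Rnf10 the neuron sEV share was 12.4% ± 2.48. Over all genes of the table the shares were 2.69% ± 0.077 and 7.14% ± 1.04 in astrocyte cells and sEVs, 1.60% ± 0.029 and 4.67% ± 1.21 in microglia, and 3.83% ± 1.38 and 9.94% ± 0.39 in neurons. The 27 genes called higher in the mean had a median fragment share of 6.62% in cells and 19.9% in sEVs. The 13 called lower had 1.17% and 4.72%, and the 96 not called 0.958% and 2.67%. The fragment share was larger in sEVs than in cells for 15 of the 27 higher genes, 10 of the 13 lower and 61 of the 96 not called. When only full-splice matches were counted, 12 of the 27 higher calls were kept (23 could be tested), and 10 of the 13 lower ones. Without 3-prime fragments, an alternative chosen after seeing the data, 14 of 27 and 11 of 13 were kept. The 12 kept on full-splice matches included the conjugating enzymes Ube2e3, Ube2f, Ube2l3, Ube2m, Ube2s and Ube2v1, and Rnf7, Rnf141, Fbxl14, Fbxw2 and Fbxo30, whose call with all isoforms was itself lost in 6 of the 18 fits that left out 1 library. Rnf7 and Fbxl14 had 1 isoform each, a full-splice match, so both recounts left their reads unchanged and could hardly lose their calls. Fbxl14 and Ube2s met the read minimum through sEV libraries, which in part fixes their direction. Taken singly, full-splice matches kept 2 of 11 higher calls and 3 of 4 lower ones in astrocytes, 1 of 6 and 1 of 3 in microglia, and 9 of 21 and 8 of 11 in neurons.

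Libraries of one sEV group also disagreed on structure more often than libraries of one cell group. Among genes of the family with at least 10 reads in each of 3 libraries and at least 20 full-splice matches in 1 of them, 8 of 58 (13.8%) had no full-splice match in another astrocyte sEV library. The counts were 5 of 51 (9.80%) in microglia sEVs and 6 of 57 (10.53%) in neuron sEVs. In cells they were 1 of 63, 1 of 51 and 0 of 61. The same measure over all genes, which was chosen after values were seen, gave 9.76%, 6.87% and 9.09% in sEVs and 1.76%, 0.986% and 2.04% in cells. The part of this in the differences between sEVs and cells was not tested beyond the 2 recounts above.

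Isoform usage was tested for 33 of the genes, those with at least 2 isoforms of enough reads, and 2 were called, where 7.13% of all 1752 genes tested were called. In Trim35 a single-exon transcript was present in every cell library and absent from every sEV library. Cells held 27, 23 and 37 reads of it in astrocytes, 20, 31 and 21 in microglia, and 65, 48 and 54 in neurons. It made up 18.9% ± 7.7, 21.9% ± 4.7 and 28.2% ± 5.8 of Trim35 reads there (SD, n = 3), and 0 reads were found in the 9 sEV libraries (adjusted p = 4.44e-09, edgeR's diffSpliceDGE with Simes p). The spliced Trim35 transcript made up 98.7%, 98.9% and 99.5% of the reads in astrocyte, microglia and neuron sEVs. At gene level Trim35 was not called between sEVs and cells in any type, with adjusted p of 0.183, 0.223 and 0.159 by edgeR. In Ube2v1 an isoform with another 3-prime end took 3.30%, 2.20% and 3.83% of reads in astrocyte, microglia and neuron cells. In the sEVs it took 9.69% ± 8.17, 6.09% ± 1.43 and 18.4% ± 13.4 (SD, n = 3; adjusted p = 0.00310 by the same test), so its size varied widely between libraries. That call was lost in 9 of the 18 fits that left out 1 library (adjusted p up to 0.161) and when isoforms needed 10 reads (0.209). Ube2f (adjusted p = 0.0613), Ube2v2 (0.231) and Rnf115 (0.371) came next and were not called by edgeR.

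The 13 tested genes of the interferon-induced or antiviral list were read mainly in microglia. They are Ube2l6, the E2 for ISG15; Rnf114, Rnf135, which activates the viral RNA sensor RIG-I, and the giant ATPase ligase Rnf213; and the Trim genes Trim12a, Trim12c, Trim14, Trim25, Trim26, Trim30a, Trim30c, Trim30d and Trim34a. All 13 were called higher in microglia cells than in the mean of astrocyte and neuron cells. Outside the microglia libraries only Ube2l6, Rnf114 and Rnf213 had 50 reads or more, so the others met the read minimum through microglia, which in part fixes that count, and Trim21 fell below it. Over all genes 18% were called higher and 24.4% lower in that comparison, and 59 of the 136 ubiquitin genes were called (32 higher and 27 lower; 42.4% of all genes). Scaled to plain library totals, 22 were higher and 53 lower, with the median of all genes at -1.43. The list was drawn up with earlier results of these data known and is no independent support for its direction. No added interferon is named for the cultures.

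The promoters of 4 of these genes held the core of the element that interferon-regulated transcription factors bind, written here as GAAANNGAAA, or TTTCNNTTTC when read on the other strand. RefSeq promoter windows of build GRCm38.p6, from 250 bases before to 50 after the annotated start, were found for 12 of the 13 genes, and the 250 bases before the start were searched on both strands; the reads themselves were mapped to another build. The windows around the matches, 5-prime to 3-prime on the strand of the gene with the match in capitals, are shown because these 4 genes are microglial in the same data.
Trim12c: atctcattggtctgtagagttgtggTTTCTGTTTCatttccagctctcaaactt
Trim26: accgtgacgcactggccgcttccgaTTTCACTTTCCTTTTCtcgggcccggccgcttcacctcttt
Trim30a: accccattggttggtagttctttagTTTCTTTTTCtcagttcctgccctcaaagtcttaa
Trim30d: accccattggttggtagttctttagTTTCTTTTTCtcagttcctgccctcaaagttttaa
Trim12c lies on the minus strand at chr7:104353350-104353403 and its match runs from 29 to 20 bases before the start. The Trim26 window is on the plus strand at chr17:36836961-36837026 and holds 2 overlapping matches, 160 to 145 bases before the start. Trim30a (chr7:104465195-104465254, minus strand, 36 to 27 bases before the start) and Trim30d (chr7:104507856-104507915, minus strand, 41 to 32 bases before the start) differ at 1 of the 60 bases shown. The motif was found in 4 of 12 interferon-list genes (33.3%), in 5 of 103 other ubiquitin genes with a window (4.85%), and in 936 of 27025 genes of the table (3.46%). These shares were not compared by a test. The list was made up of genes known as interferon-induced or antiviral, and the near-identical Trim30a and Trim30d windows are not independent matches. A match is a description of the letters and not evidence of binding.

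Several of these genes were read in microglia and nowhere else. Trim30a had 153, 425 and 195 CPM in microglia cells, 134, 349 and 358 in microglia sEVs and no read in the other 12 libraries. That is at least 57.4-fold higher in microglia cells than in the other cells (adjusted p = 4.19e-06 by edgeR). Trim30c (268, 266 and 229 CPM in microglia cells), Trim30d (159.6, 147 and 179) and Trim14 (144, 90.6 and 66.4), an adaptor of antiviral signalling, were likewise at 0 in all astrocyte and neuron libraries. They were at least 56.7-fold, 36.04-fold and 22.3-fold higher. The Trim30 and Trim12 genes are near-identical neighbours, so how reads were split among them is uncertain. Trim25, which ubiquitylates RIG-I, had 208, 87.8 and 275 CPM in microglia cells, and 216 reads there stood against 3 in the other cells (ratio with a 95% counting interval of 88.7 to 1284, adjusted p = 1.53e-05 by edgeR).

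Ube2l6 was present in all cells and far higher in microglia. It had 728, 748 and 927 CPM in microglia cells, 11.5, 9.70 and 12.7 in astrocyte cells and 9.46, 12.2 and 18.1 in neuron cells (difference 6.01, SE 0.34, adjusted p = 1.14e-09 by edgeR). Rnf213 stood at 453, 456 and 611 CPM in microglia cells, with a difference of 7.30 (adjusted p = 1.48e-06), and Rnf114 at 543, 479 and 569.9, with a difference of 2.70 (adjusted p = 6.90e-07). Rnf114 was also read in astrocyte cells, at 102, 139 and 86.2 CPM, and in neuron cells, at 50.5, 75.01 and 57.4. Trim26 had few reads (37 in microglia cells), and its adjusted p of 0.0357 was lost in 8 of the 18 fits that left out 1 library and with DESeq2.

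The ISG15 gene, its E1 and its protease were higher in microglia cells as well. Isg15 itself had 1708 reads in microglia cells and 2 in the other cells (ratio interval 861 to 25744, adjusted p = 2.36e-09 by edgeR). Its E1 enzyme Uba7 had 179 against 2 (ratio interval 89.1 to 2717, adjusted p = 8.32e-06), and Usp18, the protease that removes ISG15, 3347 against 5 (adjusted p = 1.77e-09).

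In microglia sEVs these genes were read as well. None of the 13 genes was called between microglia sEVs and microglia cells, where 11.9% of all genes were called (2.7% higher, 9.18% lower). With so few calls over all genes, none of 13 says little about these genes. Their differences were positive for 4 and negative for 9, with a median of -0.24. Ube2l6 had 768, 1219 and 979.7 CPM in microglia sEVs, overlapping the cells, and Trim30d 163, 241 and 199. The same limit holds for the test of differences among the 3 sEV sources, where all 13 were called and which called 69 of 136 ubiquitin genes and 54.7% of all genes; Trim26 was lost there without microglia sEV library 1 (adjusted p = 1.00 by edgeR). The microglial markers summed to 18540.0 ± 1954 RPM in microglia cells and 7188 ± 2449 in their sEVs, and the astrocyte markers to 24552 ± 1439 in astrocyte cells and 16443 ± 6704 in theirs (SD, n = 3); the part of these drops in the differences was not tested. A p above the threshold does not show that the levels were equal. The SE of the sEV difference was 0.35 for Ube2l6 and 0.41 for Trim30d on the log2 scale.

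**Figure D4:**
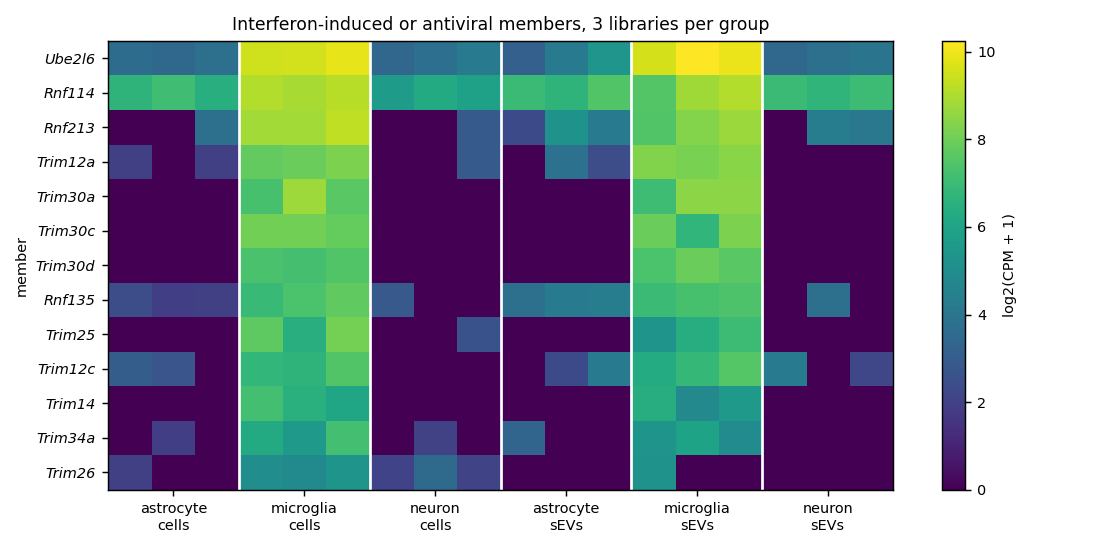
Level of the 13 interferon-induced or antiviral genes in all 18 libraries, as log2(CPM + 1), with 3 columns per group; yellow is high and dark purple is 0. The columns of microglia cells and microglia sEVs are bright, and those of astrocytes and neurons are darker, with Rnf114 the brightest row there.

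Other E2s and ligases were also higher in microglia cells, among them Ube2d3, a general-purpose E2 that works with many RING ligases. Ube2d3 had 1162, 1054 and 1044 CPM in microglia cells, 282, 212 and 124 in astrocyte cells and 194, 306 and 129.6 in neuron cells (difference 2.38, SE 0.30, adjusted p = 4.52e-06 by edgeR). It has near-identical relatives, so reads may have been shared among them. Ube2f stood at 379.9, 283 and 375 CPM in microglia cells (difference 3.28, adjusted p = 1.47e-07), the RING ligase Rnf115 at 492, 493 and 314 (difference 2.85, adjusted p = 1.66e-07) and Ube2e1 at 498, 447 and 428 (difference 1.89, adjusted p = 6.72e-05). None of these 4 overlapped the astrocyte or neuron cells. Rnf128, an endosomal ligase known from T cell anergy, had 76.6, 79.3 and 70.96 CPM in microglia cells and 4 reads in all other cells (adjusted p = 0.00192). Rnf128 met the read minimum through microglia cells, which in part fixes that call. For the other 4 genes the test among sEV sources gave adjusted p of 9.33e-08 for Rnf115, 3.23e-06 for Ube2f, 3.30e-06 for Ube2e1 and 5.62e-06 for Ube2d3.

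Microglia lacked other members of the same families. Fbxo44, a receptor of the glycoprotein-binding F-box group, was at 0 in all 6 microglia libraries and at 145, 147 and 206 CPM in astrocyte cells and 115, 132 and 119.8 in neuron cells. It was at least 17.3-fold lower in microglia cells (adjusted p = 3.21e-06 by edgeR). Ube2e2, the relative of Ube2e1, was at 0 in microglia cells, against 31.5, 40.2 and 19.8 CPM in astrocyte cells and 44.2, 65.8 and 34.5 in neuron cells, at least 4.73-fold lower (adjusted p = 5.59e-04). These paralogues were called in opposite directions, Ube2e1 with 501 reads in microglia cells and Ube2e2 with none. Trim59 was at 0 in microglia cells, against 38.7, 15.2 and 38.1 CPM in astrocyte cells and 11.04, 7.65 and 27.9 in neuron cells (at least 2.78-fold lower, adjusted p = 0.0364 by edgeR, lost in 6 of the 18 fits that left out 1 library). Fbxw5, another cullin receptor, was lower but present, at 41.5, 42.5 and 48.1 CPM in microglia cells, 118, 111 and 116 in astrocyte cells and 148, 216 and 167 in neuron cells (adjusted p = 0.00372). Trim9, a brain TRIM ligase that responds to the guidance cue netrin, was also at 0 in all microglia libraries (at least 3.33-fold lower, adjusted p = 0.00149, 0.104 on full-splice matches).

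In neuron cells 42 of the 136 genes were called against the mean of the other cells, 28 higher and 14 lower, where 27.4% of all genes were called (19.7% higher, 7.66% lower). Plain library totals gave 36 and 10, with the median of all genes at 0.72 in place of 0.34. Of the 8 tested genes on a list of neuronal Trim and F-box genes, 5 were higher in neuron cells and none lower: Trim2, Trim3, Trim9, Trim32 and Trim46. Trim9 was also called higher in astrocyte cells, against the mean of the others. Its reads overlapped, at 6, 14 and 28 in astrocyte cells and 14, 22 and 26 in neuron cells. Trim3 overlapped as well, at 4, 2 and 7 against 14, 22 and 5. Both were at 0 in microglia cells. Trim2 and Trim46 had fewer than 50 reads outside the neuron libraries and met the read minimum through them, which in part fixes that count. Trim46, which bundles microtubules at the base of the axon, had 37.9, 24.5 and 31.2 CPM in neuron cells against 4 reads in astrocyte cells and none in microglia cells (adjusted p = 0.00450 by edgeR). Fbxw7, described above, had 623 reads in neuron cells, 8 in astrocyte cells and 2 in microglia cells (adjusted p = 1.83e-05). The call of Trim2, a ligase of neurofilament light chain, was lost without microglia cell library 2 or 3 or neuron cell library 1 or 2 (adjusted p 0.0510 to 0.0770, 0.0225 with all libraries). Trim32, known for its part in the differentiation of neural progenitors, had 156, 147 and 103 CPM against 43.00, 42.9 and 48.03 in astrocyte cells. Its adjusted p of 0.0185 became 0.0607 and 0.0556 without neuron cell libraries 1 and 2.

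The neuronal genes differed in whether they appeared in neuron sEVs. Rnf208 had 69.4, 84.2 and 57.4 CPM in neuron cells and 72.97, 67.5 and 44.4 in neuron sEVs, and Rnf227 34.7, 67.4 and 50.9 and 34.8, 67.5 and 49.8. Both overlapped and had differences of -0.19 (SE 0.76) and -0.01 (SE 0.85), neither called by edgeR. The 44, 32 and 25 reads of Rnf208 in the neuron sEV libraries held 0, 32 and 0 full-splice matches. Trim46 had 61.4, 71.7 and 44.4 CPM in neuron sEVs, each above the cells, and was not called (difference 0.92, SE 1.08, adjusted p = 0.566). Fbxl2 and Rnf112, in contrast, had no read in neuron sEVs, as given above. Both met the read minimum through neuron cells, which in part fixes that loss. The astrocyte markers were at like levels in both neuron fractions, 3132 ± 167 RPM in cells and 3184 ± 581 in sEVs, while the neuronal markers summed to 5234 ± 488 in cells and 1598 ± 361 in sEVs (SD, n = 3). The part of that drop in the losses of neuronal genes was not tested.

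**Figure D5:**
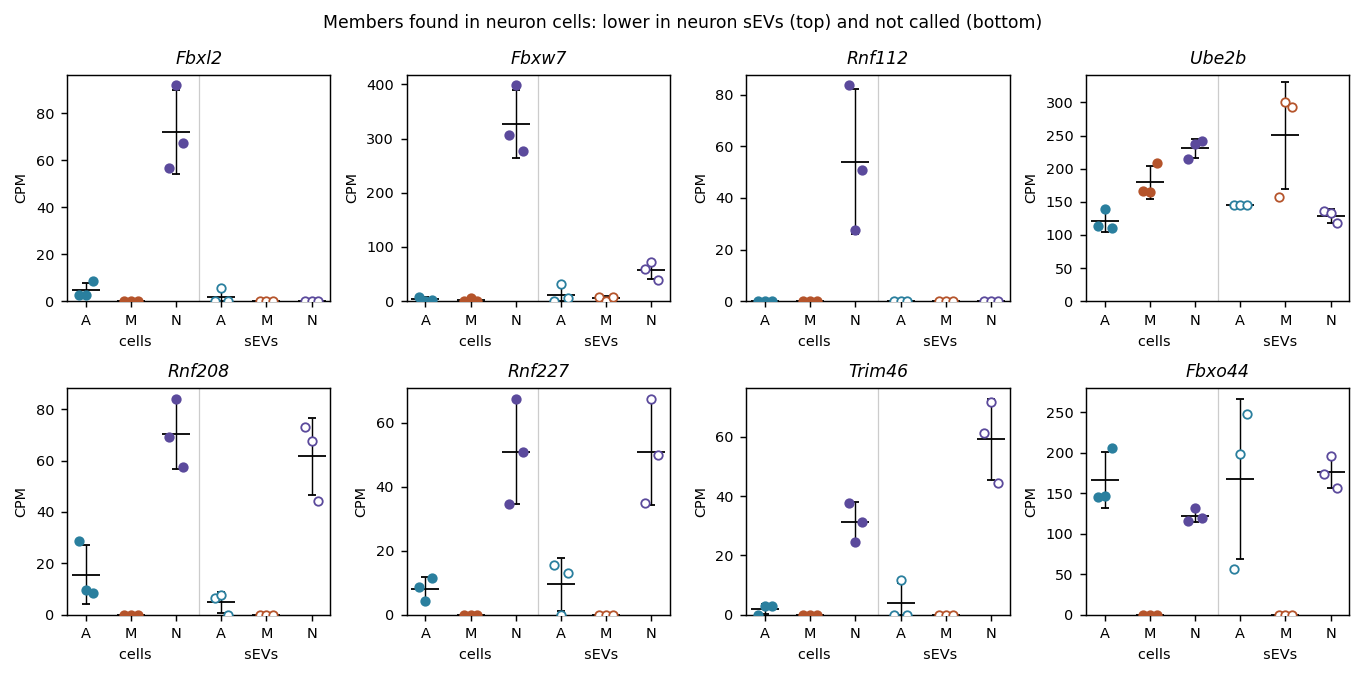
CPM in each library for 4 genes lower in neuron sEVs than in neuron cells (top row) and for 4 genes found in neuron cells and not called there (bottom row), in astrocytes (A), microglia (M) and neurons (N); filled points are cell libraries, open points sEV libraries, and bars give the mean and SD of 3 libraries. Fbxl2 and Rnf112 fall to 0 in neuron sEVs, while the cell and sEV libraries of Rnf208 and Rnf227 overlap.

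In astrocyte cells 15 of the 136 genes were called against the mean of the other cells, 7 higher and 8 lower, where 15.9% of all genes were called (10.8% higher, 5.1% lower). Plain library totals gave 17 and 3, with the median of all genes at 0.63 in place of 0.24. Rnf122 was higher in astrocyte cells, with 161 reads against 28 in neuron cells and none in microglia cells (adjusted p = 0.00562 by edgeR). It met the read minimum through astrocyte cells, which in part fixes that call. Fbxo2, a receptor for glycoproteins with high-mannose chains, had 307, 215 and 185 CPM in astrocyte cells, 75.7, 59.7 and 32.8 in neuron cells and 0, 11.3 and 0 in microglia cells (difference 4.0, SE 0.56, adjusted p = 1.78e-04). It was called neither higher nor lower in neuron cells, although its name appears on the neuronal list. Rnf180, a membrane ligase that acts on monoamine oxidase, stood at 132, 144 and 138 CPM in astrocyte cells and 53.6, 21.4 and 37.7 in neuron cells (difference 2.08, SE 0.44, adjusted p = 0.00372, 0.648 on full-splice matches). Fbxo44 was called higher in astrocyte cells (adjusted p = 1.10e-04) and in neuron cells (adjusted p = 2.77e-04), each against the mean of the others. Fbxo8 was called higher in astrocyte cells, with 65.9, 87.3 and 40.97 CPM (adjusted p = 0.0260), a call lost in 7 of the 18 fits that left out 1 library. Fbxo3, with 126, 139.9 and 158 CPM in astrocyte cells and 76.6, 59.5 and 82.4 in microglia cells, was called in no comparison of cell types (adjusted p = 0.159 for astrocyte cells). In astrocyte sEVs Fbxo44 ranged widely, at 56.8, 198 and 248 CPM.

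The other genes of the ubiquitin system, taken from lists of known parts, were read beside the families in the mean of sEVs against cells, where 14.5% of all genes were higher and 19.5% lower. Of 13 precursor genes for ubiquitin and its relatives, 8 were higher and 1 lower. Rps27a, which encodes ubiquitin fused to a ribosomal protein, had the smallest adjusted p (difference 1.37, SE 0.14, adjusted p = 1.00e-06 by edgeR). It differed among the cell types (adjusted p = 0.00489), at 1.05 in astrocytes, 0.48 in microglia (adjusted p = 0.252) and 2.58 in neurons. Of 6 E1 enzymes, 3 were lower and none higher, among them Uba3 (-0.72, adjusted p = 0.0112) and Nae1 (-1.06, adjusted p = 0.0123), the 2 subunits of the E1 for NEDD8. Of single cell types, both were called only in neurons (-1.86, adjusted p = 0.00132, and -2.39, adjusted p = 0.00437); in astrocytes they were at -0.26 and -0.62, and in microglia at -0.05 and -0.17. Cullins and their partners gave 4 higher and 2 lower of 12, with Rbx1, the RING subunit common to most cullin ligases, at 0.98 (adjusted p = 9.37e-05). HECT and U-box ligases gave 8 higher and 2 lower of 19, and deubiquitinases 12 higher and 5 lower of 44.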

How the data were processed

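Poly(A) RNA was copied to cDNA, and 100 ng of cDNA per library was sequenced on 2 SMRT cells per pool with a 24 h movie, per the labels' protocols. The authors deposited 1 table of counts per isoform, unnormalized, with an isoform class and a gene label per row. minimap2 and GRCm39 are named in the submitters' processing notes; aligner settings, isoform caller and strand handling are not stated in these sources. Counts were summed per gene label over all isoforms. One edgeR model (edgeR 4.0.16, limma 3.58.1, R 4.3.3) of all 6 groups was fitted to the 8184 genes that passed filterByExpr, with TMM scaling, quasi-likelihood tests and Benjamini-Hochberg adjustment at 0.05. Isoform usage was tested with diffSpliceDGE. The fitting was checked on simulated counts. Counting intervals on read ratios are exact 95% intervals and cover counting error only, since no molecular identifiers were used. The labels do not say that replicates are separate cultures, so p-values measure the spread between these libraries, which may be technical.

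Single genes were named by rule: for each comparison, members called, not overlapping and with a mean of at least 20 reads in the higher group, up to the 8 largest changes in each direction; the 8 smallest adjusted p for tests over several groups; the 5 smallest for isoform usage; the 5 highest CPM per family; the 2 smallest adjusted p per pathway list; and members of role lists as examples. Some genes under this rule are not reported here. The genes and lists were chosen with earlier results of these data known. Alternatives were DESeq2 1.42.0, plain library totals, no filter, the replicate number as a block, full-splice matches only, the 2 groups alone, and each library left out. Promoters came from a RefSeq table (GRCm38.p6), which held 115 of the 146 genes.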

Additional observations from a re-analysis of the deposited data

Results flagged for a closer look

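Rnf10 was singled out because its shift between sEVs and cells differed among the 3 cell types. The test of that difference gave an adjusted p of 0.00462 (edgeR), with log2 differences of 3.64 in astrocytes, 1.65 in microglia and 4.67 in neurons. On full-splice matches alone the adjusted p was 0.349, and without 3-prime fragments 0.678. The 3 libraries of an sEV group differed in which structure their Rnf10 reads had, and the part of this in the difference among cell types was not tested.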

How the results depend on the processing

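Of 282 calls of single genes, 273 were never reversed in an alternative that gave a value. The 282 include the 69 calls among sEV sources and the 1 among cell types, which have no direction and could not count as reversed. In all alternatives 110 calls stayed under the threshold, and 110 were lost when some 1 library was left out. Counts of ubiquitin genes called moved by over 1.5 times as follows. In astrocytes sEVs against cells gave 15, but 23 with DESeq2, 7 with full-splice matches only and 9 without 3-prime fragments (an alternative chosen after seeing the data). In microglia 9 became 14 with DESeq2, 20 with plain library totals, 5 with full-splice matches and 16 when only the 2 groups compared were fitted. The mean of the 3 cell types went from 40 to 23 with full-splice matches. The test among cell types went from 1 to 12 with DESeq2, 10 with plain library totals, 9 with no filter and 0 without 3-prime fragments (edgeR; Rnf10 had an adjusted p of 0.678 there). Astrocyte cells gave 24 with DESeq2, and full-splice matches gave 39 in microglia cells and 24 in neuron cells. Isoform usage gave 4 by the gene-level F test and 1 when isoforms needed 10 reads. With 1 library left out the counts ran from 9 to 18 in astrocytes, 5 to 14 in microglia, 19 to 36 in neurons, 33 to 41 in the mean and 1 to 6 among cell types. They ran from 7 to 18 for astrocyte cells, 42 to 67 for microglia cells, 28 to 45 for neuron cells, 63 to 71 among sEV sources and 1 to 2 for isoform usage. In 10 cases a log2 difference reached 0 or changed sign. Full-splice matches gave -5.60 for Rnf10 in microglia, 0.0 for Rnf19b in neurons, and in the mean -0.36 for Fbxw11, -0.0001 for Rnf19b, -0.068 for Rnf20 and -0.81 for Trim37. Leaving out 3-prime fragments gave 0.0 for Fbxo11 in microglia, 0.0 for Rnf19b in neurons and -1.93 for Fbxo11 in the mean, and plain library totals gave -0.0533 for Ube2d2a in microglia cells. Where a group is at 0 such a value depends on the fit, and the cause of each change was not tested beyond the isoforms removed.

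The labels number the libraries 1 to 3 in each group. Deviations of libraries with the same number correlated between -0.07 and 0.05, none of 9 pairs over 0.1, so the numbers were not taken as pairs. With the replicate number as a block the calls were 15 in astrocytes, 8 in microglia, 28 in neurons, 33 in the mean, 1 among cell types, 15, 57 and 39 for astrocyte, microglia and neuron cells, 62 among sEV sources and 2 for isoform usage.

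Library totals limit what could be seen: 3 reads, the floor used for bounds, correspond to 3.88 to 9.58 CPM. All p-values measure the spread between these libraries only.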

Other observations

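A pair of neuronal genes, picked here after their values were seen, had more reads in neuron sEVs than anywhere else without being called there. Ube2ql1, a conjugating enzyme related to Ube2q1, had 0, 45.9 and 29.5 CPM in neuron cells and 153, 189.9 and 88.9 in neuron sEVs. No library overlapped, and edgeR gave an adjusted p of 0.101 for the difference and 3.82e-04 among the sEV sources, where astrocyte and microglia sEVs held no read. Rnf157, a RING ligase of brain, had 3.15, 0 and 64.00 CPM in neuron cells and 136, 247 and 7.11 in neuron sEVs, which overlapped (adjusted p = 0.215).

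The near-identical E2s Ube2a and Ube2b, the mouse forms of a yeast DNA repair enzyme, differed in the tests. Ube2b was called lower in neuron sEVs, as reported above. Ube2a had 48.9, 56.6 and 50.9 CPM in neuron cells and 44.8, 23.2 and 46.2 in neuron sEVs and was not called (difference -0.45, SE 0.42, adjusted p = 0.448 by edgeR). The difference between these genes was itself not tested, and how reads were split between them is uncertain.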
